A study of Mus musculus with 12 samples.

Results

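The genes described here are 10 genes of the epithelial-mesenchymal transition: *Hmga2*, the epithelial genes *Cdh1* and *Epcam*, the mesenchymal genes *Vim* and *Cdh2*, and the transcription factor genes *Zeb1*, *Zeb2*, *Snai1*, *Snai2* and *Twist1*. They were found by their symbols in the deposited count table, where all 10 are among the 39017 genes listed. Of the 10, 9 passed the filter on low counts and are among the 16527 genes tested, and *Twist1* did not pass. Members were listed by gene name, with earlier results of these data known.

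RNA was sequenced from 12 lung tumors of 9 C57BL/6 mice, 3 tumors in each of 4 groups. The groups labelled KP came from mice with p53 Fl/Fl and CCSP-rtTA alleles, and the groups labelled KPG1 from mice that carried floxed *Slc2a1* (Glut1) alleles in addition. Each mouse received 6000 viral units of Lenti.TRE-PPARαΔ13_PGK-Cre, so that Cre started the tumors and a dominant negative form of PPARα was placed under doxycycline control. The mice of the groups KP-PPARαΔ13 and KPG1-PPARαΔ13 ate a diet with doxycycline at 625 mg/kg for 15 days and those of the groups KP and KPG1 a regular diet, and all tumors were taken 26 weeks after initiation. Diet and induction therefore cannot be told apart. The rtTA is driven by the promoter of a club cell gene, and the same promoter is carried by all 4 groups. The study's methods allow control mice to hold 1 floxed copy of *Slc2a1*. RNA came from the CD45-negative fraction, which keeps fibroblasts, endothelium and normal lung epithelium beside tumor cells, so for every gene here fewer cells of a type and less RNA per cell cannot be told apart. KP tumors 1 and 2, KPG1 tumors 1 and 2, and KPG1-PPARαΔ13 tumors 1 and 3 shared a mouse in each case. The KP tumors were all female and the KPG1 tumors all male, so within those tumors genotype and sex cannot be told apart, while both doxycycline groups held tumors of both sexes.

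Between 25263794 and 32654223 reads were counted in genes per tumor. *Ppara*, whose reads can include those of the transgene, reached 64.6 and 246.1 CPM (counts scaled to a common library size) in KP-PPARαΔ13 tumors 2 and 3 but only 2.71 CPM in the tumor labelled KP-PPARαΔ13 1, below the 9.54 to 15.7 CPM of KP. In KPG1-PPARαΔ13 it was 8.90 to 19.2 CPM, overlapping the 7.24 to 15.3 CPM of KPG1. *Slc2a1* was 30.2 to 64.0 CPM in the tumors labelled KPG1 and 35.3 to 57.7 CPM in KP. In KPG1-PPARαΔ13 it was 23.7 to 54.6 CPM, below the 108.1 to 152.5 CPM of KP-PPARαΔ13. Thus *Ppara* did not separate KPG1-PPARαΔ13 from KPG1, and *Slc2a1* separated the tumors labelled KPG1 from those labelled KP on the doxycycline diet but not on the regular diet. Group names below are those of the labels. *Sftpc*, the surfactant protein gene that defines alveolar type 2 cells, was at 5540 to 29952 CPM. The leukocyte gene *Ptprc* (CD45) was at 1.88 to 31.5 CPM, with its highest value in KP tumor 1.

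In an epithelial-mesenchymal transition, epithelial cells loosen the E-cadherin junctions that hold them together and take on a vimentin-rich, motile state. Factors of the Zeb, Snail and Twist families drive this program, in part by binding E-box motifs in the promoters of epithelial genes, while microRNAs of the miR-200 family restrain *Zeb1* and *Zeb2*. *Hmga2* encodes a DNA-binding chromatin protein of the embryo that is normally silent in adult lung, is restrained by the let-7 microRNAs, and is known as a marker of advanced tumors in mouse lung adenocarcinoma.

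The sequences behind this regulation are shown for *Hmga2* and *Zeb2*, the members with the best-known microRNA sites, as a key to the levels that follow. MicroRNAs were not measured here. Mature mouse microRNAs are given from RefSeq (GRCm38.p6), with the seed, bases 2 to 8, in capitals. The seed GAGGUAG of let-7a-5p is held by 11 mature sequences in the table, among them let-7g-5p and miR-98-5p, and AAUACUG of miR-200c-3p by 3.
let-7a-5p: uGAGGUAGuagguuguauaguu
let-7g-5p: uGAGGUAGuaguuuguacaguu
miR-98-5p: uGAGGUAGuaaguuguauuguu
miR-200c-3p: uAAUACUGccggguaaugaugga

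The 3′ UTR of *Hmga2* (transcript Hmga2-203 of GENCODE M21, 3014 bases) holds the complement of the let-7 seed, CTACCTC, 4 times on the transcript strand. All 4 are on the minus strand of GRCm38, and the seed match is in capitals.
Site 1, chr10:120364222-120364246: gccgacattcaatttCTACCTCagc
Site 2, chr10:120362985-120363009: ccccactcctcaataCTACCTCtga
Site 3, chr10:120362547-120362571: ctgatttgcaaggaaCTACCTCcac
Site 4, chr10:120361689-120361713: aatcaaaacacactaCTACCTCtta
The match was present at least once in 9.02% of the longest 3′ UTRs of 21022 genes, and in 16.1% of the 2439 of similar length, of which 3 held at least 4, *Hmga2* included. *Zeb2* (transcript Zeb2-212, 4941 bases of 3′ UTR) holds the complement of the miR-200c seed, CAGTATT, 5 times. The match occurred in 38.3% of the 1094 3′ UTRs of similar length. Sites 2 and 3 are shown, again from the minus strand.
Site 2, chr2:44988106-44988130: cgcactacagtgcatCAGTATTacg
Site 3, chr2:44987744-44987768: ttgaagcacccgtgtCAGTATTaga

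Promoter windows of 300 bases (250 before to 50 after the start, RefSeq, GRCm38.p6) were found for 6 of the 10 genes, *Hmga2*, *Vim*, *Zeb2*, *Snai1*, *Twist1* and *Epcam*, and not for *Cdh1*, *Cdh2*, *Zeb1* and *Snai2*. They were searched for the E-box CAGGTG on both strands (CACCTG on the other), the motif through which Snail and Zeb factors bind DNA. It occurred in 20.2% of all 32851 windows and at least 2 times in 2.88%. The *Snai1* window held 1 match, and the *Epcam* window, shown here with its matches in capitals because it alone of the 6 held 2, had them 187 and 19 bases before the start. A match is a string of letters and no evidence of binding.
Epcam, chr17:87635729-87636028, plus strand: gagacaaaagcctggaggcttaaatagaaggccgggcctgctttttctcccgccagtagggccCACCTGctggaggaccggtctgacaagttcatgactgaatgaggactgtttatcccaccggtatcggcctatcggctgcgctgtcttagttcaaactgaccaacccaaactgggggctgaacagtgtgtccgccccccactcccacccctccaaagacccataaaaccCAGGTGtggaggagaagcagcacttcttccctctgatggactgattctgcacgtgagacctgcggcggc

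Across all 12 tumors the epithelial genes were far above the mesenchymal regulators. On a scale of CPM per kb of exon, which allows levels of different genes to be compared, *Cdh1* had a median of 211.2 and *Epcam* of 190.7. *Vim* followed with a median of 20.9 CPM per kb, and its highest tumor (55.4) was below the lowest tumor of *Epcam* (135.7). The remaining 7 genes had medians at or near 1 CPM per kb or lower: *Snai1* 1.03, *Zeb1* 0.888, *Zeb2* 0.316, *Hmga2* 0.295, *Snai2* 0.227, *Cdh2* 0.0922 and *Twist1* 0.0315. The only gaps in this order without overlap of the 12-tumor ranges were those between *Epcam* and *Vim* and between *Vim* and *Snai1*. *Zeb1* was above *Zeb2* in 12 of 12 tumors, while *Zeb2* was above *Hmga2* in 6 of 12. Exon lengths are the union of all annotated exons of a gene, 19942 bases for *Zeb2* and 1621 for *Snai1*, so a gene with many rare exons is placed low on this scale.

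**Figure D1:**
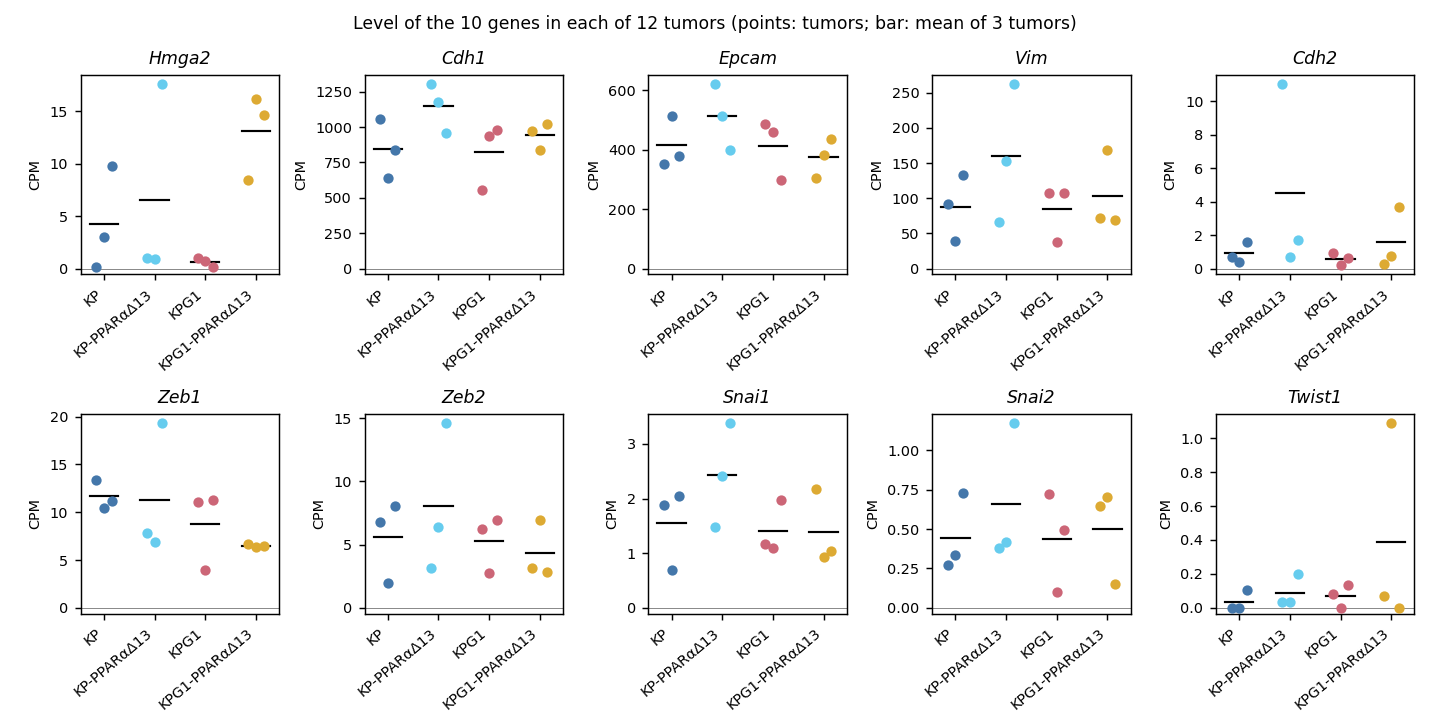
Level of each of the 10 genes in CPM (linear axis from 0) by group, where each point is 1 tumor and the bar is the mean of 3. *Hmga2* was between 8.49 and 16.2 CPM in the KPG1-PPARαΔ13 tumors and at 1.00 CPM or less in the KPG1 tumors, whereas the KP and KP-PPARαΔ13 tumors covered nearly the whole range.

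*Hmga2* (ENSMUSG00000056758, mm10 chromosome 10, 120361275 to 120476469, minus strand) had a larger spread within groups than any of the other 8 members tested. It was 0.137, 2.97 and 9.745 CPM in KP tumors 1, 2 and 3. The KP-PPARαΔ13 tumors had 1.03, 0.872 and 17.65 CPM. The KPG1 tumors had 1.00, 0.757 and 0.132 CPM, and the KPG1-PPARαΔ13 tumors had 8.49, 16.2 and 14.6 CPM. The 3 tumors of KPG1-PPARαΔ13 were thus all above the 3 of KPG1, and their ranges were apart by a wide margin, while each of the KP groups held both a tumor near or below 1 CPM and a tumor near or above 10. The lowest tumors rested on 4 reads each and the highest on 527, a range of 133.5-fold over the 12 tumors.

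In the KPG1-PPARαΔ13 tumors *Hmga2* averaged 13.1 ± 4.07 CPM against 0.630 ± 0.448 CPM in KPG1 (SD, n = 3 each). On the log2 scale the fitted difference was 4.38 with a standard error of 1.47, a 20.8-fold difference, and edgeR's quasi-likelihood test gave an unadjusted p of 0.0122 and an adjusted p of 0.42 over all genes tested. It therefore did not pass the threshold. DESeq2 gave a log2 fold change of 4.37 with an adjusted p of 0.0265, the only 1 of the 13 alternatives that called it. The exact two-sided permutation test of 3 against 3 tumors gave p = 0.1, the smallest that the design allows. Groups that did not overlap were found for 20.6% of all genes tested in this comparison, and an unadjusted p under 0.05 for 10.8%. Each group held 2 mice, and within males the comparison is 1 tumor at 16.2 CPM against the 3 KPG1 tumors. With sex as a covariate the log2 fold change was 5.76 (adjusted p = 0.9992).

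*Hmga2* showed no such order in the other comparisons, and its values are given here after they were seen. Between KP-PPARαΔ13 and KP, the log2 fold change was 0.61 (standard error 1.27, adjusted p = 0.91 from edgeR), and it was -2.17 without KP-PPARαΔ13 replicate 3 and 1.11 without replicate 1, the tumor low in *Ppara*. Between KPG1 and KP it was -2.77 (standard error 1.39, adjusted p = 0.787 from edgeR), and -1.31 without KP replicate 3. Between KPG1-PPARαΔ13 and KP-PPARαΔ13 it was 1.01 (standard error 1.27, adjusted p = 0.808 from edgeR), and it was 3.78 without KP-PPARαΔ13 replicate 3. The difference between the doxycycline effects of the genotypes was 3.77 (standard error 1.87, adjusted p = 0.451 from edgeR) and 6.55 without KP-PPARαΔ13 replicate 3 (adjusted p = 0.371), so the effect was not shown to differ between KPG1 and KP tumors. In tumors of the same mouse *Hmga2* was 0.137 and 2.97 CPM (KP), 1.00 and 0.757 CPM (KPG1), and 8.49 and 14.6 CPM (KPG1-PPARαΔ13).

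Alveolar markers moved beside *Hmga2* in the KPG1 comparison. In the study's account, alveolar type 2 cells are considered the main cell of origin in this model. These markers therefore do not tell tumor cells from normal lung. Of 10 alveolar type 2 markers, 10 had lower fitted levels in KPG1-PPARαΔ13 than in KPG1, although none passed the threshold. The median log2 fold change was -1.001 against 0.02 for all genes tested. There was no overlap of the groups for 8 of the 10, against 20.6% of all genes tested. *Cxcl15* (lungkine, secreted by alveolar cells) had 832.3 to 1503 CPM in KPG1-PPARαΔ13 and 3613 to 4583 CPM in KPG1, and *Lamp3*, a lamellar body gene, 113.8 to 556.3 against 1056 to 1641 CPM. The summed level of the 10 markers ranged from 26427 to 42286 CPM in KPG1-PPARαΔ13 and from 52449 to 81051 CPM in KPG1. In KP-PPARαΔ13 against KP, where *Hmga2* had no such order, 9 of the 10 were lower too (median -0.44), none without overlap. Of 6 alveolar type 1 markers, 6 were lower in KPG1-PPARαΔ13, 3 of them without overlap, again against 20.6% of all genes tested. Among the 3 was *Aqp5* (113.1 to 213.7 against 245.5 to 673.1 CPM). In KP-PPARαΔ13 against KP the 6 type 1 markers were all higher (median 0.53), none without overlap. Over the 12 tumors the correlation of *Hmga2* with the alveolar type 2 score (the mean log2 CPM of its markers) was r = -0.26 and rho = -0.19 (permutation p = 0.4 and 0.558), and as deviations from group means it was r = 0.45 (permutation p = 0.272). Their part in the result was not tested.

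*Cdh1* (ENSMUSG00000000303, mm10 chromosome 8, 106603351 to 106670246, plus strand) encodes E-cadherin, the adhesion molecule of epithelial junctions. It was 1055, 641.8 and 835 CPM in KP, and 1306, 1178 and 957.5 CPM in KP-PPARαΔ13. In KPG1 it was 557.7, 939.9 and 981.5 CPM and in KPG1-PPARαΔ13 974.5, 839.2 and 1021 CPM. Every pair of groups overlapped, and the highest of the 12 tumors was 2.34-fold above the lowest. *Epcam* (ENSMUSG00000045394, mm10 chromosome 17, 87635979 to 87651129, plus strand), an epithelial surface glycoprotein, was similarly even. It was 351.5, 515.5 and 378.2 CPM in KP and 622.6, 514.7 and 399.9 CPM in KP-PPARαΔ13. In KPG1 it was 485.8, 459.7 and 297.9 CPM, and in KPG1-PPARαΔ13 303.4, 384 and 437.1 CPM. *Epcam* thus had its highest and *Cdh1* its highest value in the same tumor, the one labelled KP-PPARαΔ13 1, but the order of the remaining tumors differed between these genes. Neither passed the test in any comparison. The 95% normal interval around the log2 fold change of *Cdh1* was -0.08 to 0.97 for KP-PPARαΔ13 against KP and -0.33 to 0.72 for KPG1-PPARαΔ13 against KPG1, and for *Epcam* it was -0.21 to 0.81 and -0.65 to 0.36.

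The tumor-to-tumor changes of *Cdh1* went in part with those of other genes on its chromosome. Of the 100 genes with the highest Pearson r to *Cdh1* over the 12 tumors, 45 were on chromosome 8, which holds 5.41% of the genes compared. These 45 were not only neighbours, as 21 of them lay within 20 Mb of *Cdh1*. The other 763 chromosome 8 genes were each taken relative to their 12-tumor mean. Their median was -0.53 on the log2 scale in KPG1 tumor 1, the tumor with the lowest *Cdh1*, and 0.38 in KP tumor 1. Over the 12 tumors *Cdh1* had r = 0.60 with this median. In KP tumor 2 the median was 0.135 with *Cdh1* at 641.8 CPM, and in KP-PPARαΔ13 tumor 3 -0.25 with 957.5 CPM. For *Epcam*, 25 of the 100 nearest genes were on chromosome 17 (5.03% of the genes compared), 2 of them within 20 Mb. The median of that chromosome was lowest, -0.41, in KPG1-PPARαΔ13 tumor 1, where *Epcam* was 303.4 CPM. The tumor with the lowest *Epcam*, KPG1 tumor 3 (297.9 CPM), had a chromosome 17 median of -0.19. Over the 12 tumors *Epcam* had r = 0.52 with the chromosome 17 median and a higher r, 0.73, with that of chromosome 16. For *Hmga2* the count was 4 of 100 on chromosome 10, with 4.57% of the genes. Over the 12 tumors *Hmga2* had r = 0.38 with the chromosome 10 median and a higher r, 0.83, with that of chromosome X. All genes share the 12 libraries, DNA copy number was not measured, and these counts are a description.

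**Figure D2:**
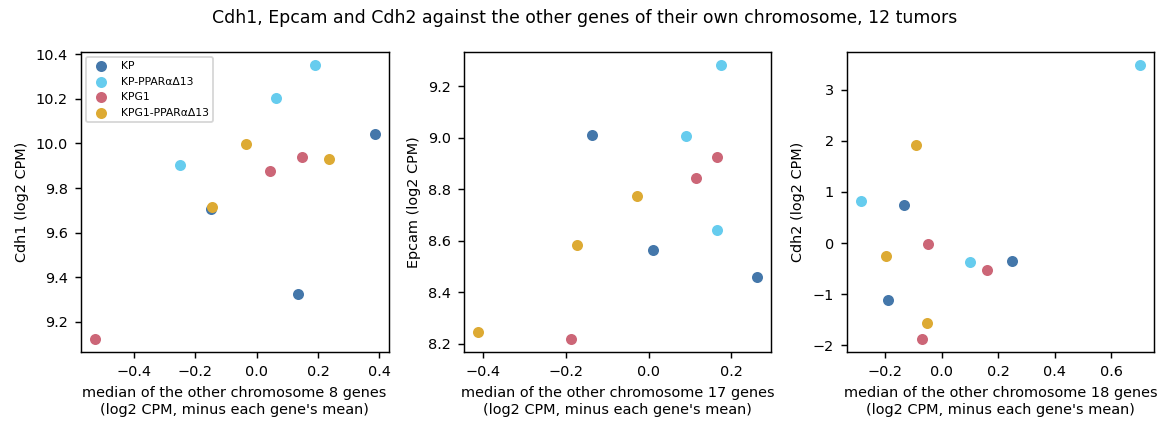
Log2 CPM of *Cdh1*, *Epcam* and *Cdh2* (vertical axes) against the median log2 CPM of the other genes on the same chromosome, each relative to its own mean (horizontal axes), where each point is 1 of 12 tumors colored by group. The tumor with the lowest *Cdh1* had the lowest chromosome 8 median (-0.53), and the tumor with the highest *Cdh2* the highest chromosome 18 median (0.70).

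*Vim* (ENSMUSG00000026728, mm10 chromosome 2, 13573927 to 13582826, plus strand) encodes vimentin, the intermediate filament of mesenchymal cells. It was 91.8, 39.8 and 132.6 CPM in KP, and 66.05, 152.4 and 262.9 CPM in KP-PPARαΔ13. In KPG1 it was 107.4, 37.9 and 107 CPM, and in KPG1-PPARαΔ13 72.0, 168.6 and 68.8 CPM. All groups overlapped. KP-PPARαΔ13 tumor 3 was the highest of the 12, as it was for *Hmga2*, *Zeb1*, *Zeb2*, *Snai1* and *Snai2*. The log2 fold change between KP-PPARαΔ13 and KP had an interval from -0.30 to 2.03. In tumors of the same mouse *Vim* was 91.8 and 39.8 CPM in KP and 107.4 and 37.9 CPM in KPG1, whereas it was 72.0 and 68.8 CPM in the pair of KPG1-PPARαΔ13.

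*Cdh2* (ENSMUSG00000024304, mm10 chromosome 18, 16588877 to 16809246, minus strand) encodes N-cadherin, the cadherin that mesenchymal cells carry in place of E-cadherin. It had 0.719, 0.394 and 1.60 CPM in KP, and 11.1, 0.71 and 1.71 CPM in KP-PPARαΔ13. The values were 0.92, 0.207 and 0.628 CPM in KPG1, and 0.273, 0.768 and 3.69 CPM in KPG1-PPARαΔ13. A single tumor stood out, the one labelled KP-PPARαΔ13 1, with 323 of the 676 *Cdh2* reads of the whole series. Its *Cdh1* was also the highest of the 12. The fitted log2 fold change of *Cdh2* between KP-PPARαΔ13 and KP was 2.31 (standard error 1.13, adjusted p = 0.472 from edgeR), and 0.42 without KP-PPARαΔ13 replicate 1. The same tumor had *Dcn*, a fibroblast proteoglycan gene, at 123.5 CPM against at most 22.4 CPM in the others, while *Lum*, which encodes another fibroblast proteoglycan, was at 0.103 CPM there. The median of the other chromosome 18 genes was 0.70 on the log2 scale above their 12-tumor mean in that tumor. *Zeb1*, also on chromosome 18, was at 7.78 CPM there, against 10.5 to 13.4 CPM in KP. Over the 12 tumors, r with the median of the other chromosome 18 genes was 0.50 for *Cdh2* and -0.09 for *Zeb1*. The part of fibroblasts and of chromosome 18 in the *Cdh2* level was not tested.

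*Zeb1* (ENSMUSG00000024238, mm10 chromosome 18, 5591860 to 5775467, plus strand), a zinc finger and homeobox repressor of E-cadherin, was 13.4, 10.5 and 11.2 CPM in KP, and 7.78, 6.84 and 19.3 CPM in KP-PPARαΔ13. It was 11.1, 3.92 and 11.3 CPM in KPG1, and 6.72, 6.34 and 6.50 CPM in KPG1-PPARαΔ13. The last group was narrow and lay below all 3 tumors of KP-PPARαΔ13, with 6.52 ± 0.191 against 11.3 ± 6.95 CPM (SD, n = 3 each). The fitted log2 difference was -0.80 with a standard error of 0.458 and an adjusted p of 0.579 from edgeR, and 17.6% of all genes had no overlap in this comparison. It was -0.17 without KP-PPARαΔ13 replicate 3. *Zeb2* (ENSMUSG00000026872, mm10 chromosome 2, 44983632 to 45117395, minus strand), the paralog of *Zeb1*, was 6.81, 1.94 and 8.07 CPM in KP and 3.12, 6.42 and 14.6 CPM in KP-PPARαΔ13. It was 6.20, 2.75 and 6.94 CPM in KPG1 and 3.14, 6.98 and 2.86 CPM in KPG1-PPARαΔ13. *Zeb2* overlapped between all groups.

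Among the remaining factors, *Snai1* (ENSMUSG00000042821, mm10 chromosome 2, 167538195 to 167542814, plus strand), which encodes Snail, was 1.88, 0.697 and 2.05 CPM in KP and 1.47, 2.42 and 3.38 CPM in KP-PPARαΔ13. It was 1.16, 1.10 and 1.98 CPM in KPG1 and 2.18, 0.928 and 1.05 CPM in KPG1-PPARαΔ13. *Snai2* (ENSMUSG00000022676, mm10 chromosome 16, 14705852 to 14709385, plus strand), which encodes Slug, was 0.274, 0.334 and 0.731 CPM in KP and 0.377, 0.42 and 1.17 CPM in KP-PPARαΔ13. It was 0.72, 0.103 and 0.496 CPM in KPG1 and 0.648, 0.704 and 0.154 CPM in KPG1-PPARαΔ13. Both overlapped between all groups, and *Snai2* rested on 3 to 35 reads per tumor, and its interval for KP-PPARαΔ13 against KP ran from -0.97 to 2.08 on the log2 scale.

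*Twist1* (ENSMUSG00000035799, mm10 chromosome 12, 33957671 to 33959829, plus strand), a basic helix-loop-helix factor of mesoderm, had 53 reads in the whole series, and 34 of them came from KPG1-PPARαΔ13 tumor 2, at 1.09 CPM. No other tumor was above 0.201 CPM, a level that stood on 6 reads. The gene had no read in 4 tumors (KP 1 and 2, KPG1 2 and KPG1-PPARαΔ13 3), where 3 reads would have been 0.0909 to 0.103 CPM. That 1 tumor was also the highest of the series in *Igf2bp1*, an RNA-binding protein gene of the embryo, at 1.67 CPM. It was not the tumor with the highest *Hmga2*, *Vim* or *Zeb1*.

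None of the 9 genes tested was called in any of the 5 comparisons at an adjusted p under 0.05 by edgeR, limma voom or the other fits, with the exception of *Hmga2* by DESeq2 in KPG1-PPARαΔ13 against KPG1. Of all genes tested, 0.00605% were called in KP-PPARαΔ13 against KP, 0.00605% in KPG1-PPARαΔ13 against KPG1, 0.0363% in KPG1 against KP, 0.0303% in KPG1-PPARαΔ13 against KP-PPARαΔ13 and 0% for the difference between the doxycycline effects. For the last, 11.8% of the genes (1952) had an unadjusted p under 0.05, and DESeq2 called 286. In KP-PPARαΔ13 against KP, 0 of 9 members had an unadjusted p under 0.05 and 0 of 9 had groups that did not overlap, against 11.4% and 13.3% of all genes. In KPG1-PPARαΔ13 against KPG1 the counts were 1 and 1, *Hmga2* in both, against 10.8% and 20.6%. In KPG1 against KP they were 0 and 0 against 6.23% and 9.95%, and in KPG1-PPARαΔ13 against KP-PPARαΔ13 they were 0 and 1 (*Zeb1*) against 9.69% and 17.6%.

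The fitted changes of epithelial and mesenchymal members did not point in opposite directions. Between KP-PPARαΔ13 and KP, 8 of 9 members had a positive log2 fold change (median 0.56 against -0.01 for all genes tested), and these included *Cdh1* and *Epcam* as well as *Vim* and *Snai1*. Without KP-PPARαΔ13 replicate 1 it was 9 of 9 (median 0.83), without replicate 3 it was 5 of 9 (median 0.31), and with sex as a covariate also 5 of 9. Between KPG1-PPARαΔ13 and KPG1, 5 of 9 were positive with a median of 0.19 against 0.02, and the median was below 0 when either of KPG1-PPARαΔ13 replicates 1 and 2 or KPG1 replicates 1 and 2 was left out (-0.01, -0.13, -0.02 and -0.10). Between KPG1 and KP, 9 of 9 were negative, with a median of -0.08 against -0.03. With sex as a covariate 7 of 9 were negative with a median of -0.87. The count was 5 of 9 without KPG1 replicate 2 and 4 of 9 without KP replicate 3. Between KPG1-PPARαΔ13 and KP-PPARαΔ13, 8 of 9 were negative (median -0.64 against 0.01), all but *Hmga2*. Leaving out KP-PPARαΔ13 replicate 3 gave a median of -0.17. The comparisons share groups and so are not independent.

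**Figure D3:**
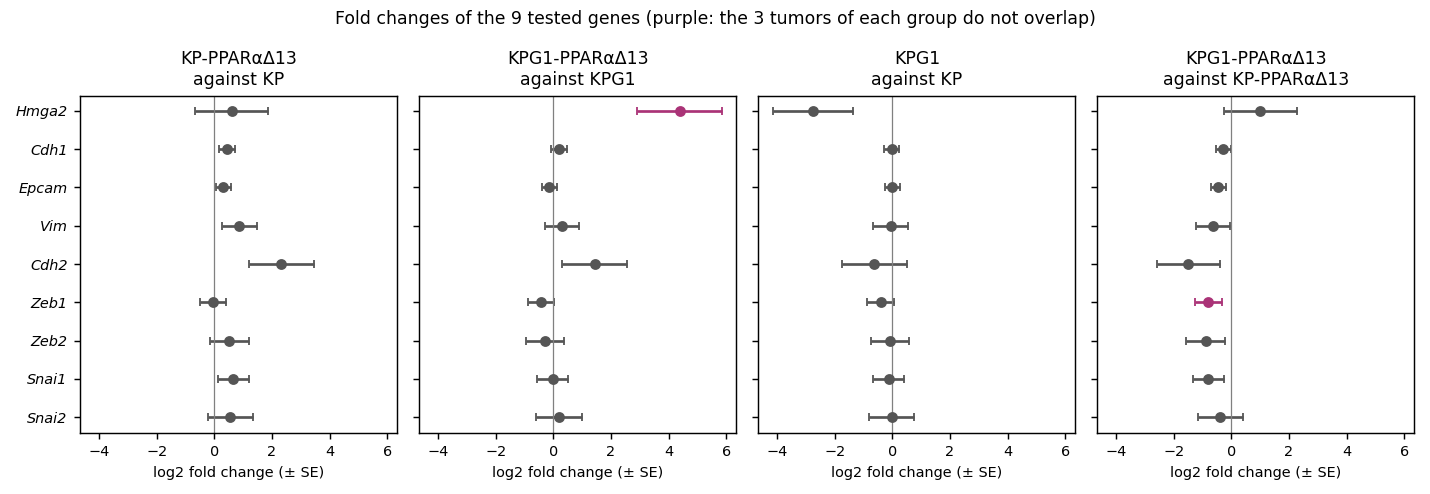
Log2 fold change with its standard error (horizontal axis) of the 9 tested genes in 4 comparisons, one per panel, from edgeR's fit of all 12 tumors. Purple marks the values whose groups did not overlap, *Hmga2* at 4.38 in KPG1-PPARαΔ13 against KPG1 and *Zeb1* at -0.80 in KPG1-PPARαΔ13 against KP-PPARαΔ13.

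Members differed in their spread within groups. The SD of log2 CPM within groups was 1.99 for *Hmga2*, which exceeded that of 97.2% of the 1338 genes of similar level, and 0.877 for *Vim*, above 96.3% of 1961. *Cdh2* followed at 1.48 (above 88.0% of similar genes). The epithelial genes were at the other end, at 0.319 for *Cdh1* and 0.32 for *Epcam*, below the middle of genes of similar level (percentiles 38.3 and 44.7). The spread of *Hmga2* was itself uneven, with an SD of 2.87 in KP, 2.39 in KP-PPARαΔ13, 1.30 in KPG1 and 0.498 in KPG1-PPARαΔ13.

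*Vim* varied with *Zeb2* and the Snail family genes across tumors, and *Cdh2* had low values of r with them. Over the 12 tumors *Vim* had r = 0.93 with *Zeb2*, which was the first of 12685 genes in likeness to *Vim*, and r = 0.77 with *Snai2* and 0.63 with *Snai1*. *Cdh2* had r = 0.21 with *Vim*, 0.10 with *Zeb2*, 0.08 with *Snai2* and 0.09 with *Snai1*. *Hmga2* had r = 0.28 with *Vim*, -0.03 with *Zeb1* and -0.16 with *Cdh1*. *Cdh1* and *Epcam* had r = 0.00 with each other. As deviations from group means, *Hmga2* had r = 0.26 with *Vim*, 0.22 with *Zeb1* and -0.63 with *Cdh1*, and *Cdh1* had r = -0.34 with *Epcam*. On that scale *Epcam* had r = -0.91 with *Snai1*, -0.67 with *Zeb2*, -0.59 with *Vim* and -0.54 with *Zeb1*, against -0.38, -0.36, -0.27 and -0.21 over the tumors as they were. After *Zeb2*, the genes most like *Vim* were *Nes* (r = 0.91), *Porcn* (0.90), *Dkk3* (0.90) and *Lix1l* (0.88), and the most opposite *Lmtk3* (-0.92), *Bbx* (-0.81), *Adsl* (-0.79), *Hdac4* (-0.79) and *Zc3h4* (-0.79). *Nes* encodes nestin, a further intermediate filament. Genes most like *Hmga2* were *Rpl10* (0.89), *Rnf103* (0.88), *Nudt16* (0.88), *Ptpn9* (0.87) and *Mob3a* (0.87), and the most opposite *Rint1* (-0.88), *Acad10* (-0.88), *Shh* (-0.86), *Ifi30* (-0.85) and *Znrd1as* (-0.84). For *Cdh1* they were *Ube2d2a* (0.96), *Aars* (0.93), *Dhx38* (0.92), *Eif4ebp1* (0.92) and *Tm2d2* (0.90), and on the opposite side *Zfp94* (-0.94), *Akap7* (-0.91), *Ube3a* (-0.90), *Ctr9* (-0.89) and *BC030336* (-0.89). These are descriptions over points that share libraries and, in 3 cases, mice.

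The levels of *Zeb1* and *Zeb2* followed markers of other cell types. Scores for fibroblasts, endothelium, leukocytes and alveolar type 2 cells were set against the 10 members in 40 relations, with permutation p-values adjusted over all 40. *Zeb1* and the endothelium score had r = 0.82 and rho = 0.76 (n = 12 tumors, permutation p = 0.00124 and 0.0061, adjusted p = 0.0396 and 0.224), and r = 0.69 without the 2 tumors farthest from the median score. *Zeb2* and the endothelium score had r = 0.78 and rho = 0.52 (permutation p = 0.00297 and 0.0878, adjusted p = 0.0396 and 0.57), and r = 0.63 without 2 tumors. *Zeb2* and the leukocyte score had r = 0.79 and rho = 0.71 (permutation p = 0.00262 and 0.0112, adjusted p = 0.0396 and 0.224), and r = 0.73 without 2 tumors. As deviations from group means the 3 values of r were 0.86, 0.80 and 0.80, with adjusted permutation p = 0.247 each, and with 1 point per mouse they were 0.85, 0.74 and 0.78, with adjusted p = 0.102, 0.151 and 0.102. No other relation passed, and *Vim* had r = 0.63 with the endothelium and 0.67 with the leukocyte score (adjusted permutation p = 0.17 each). *Hmga2* had r = -0.01 with the endothelium, 0.02 with the fibroblast and -0.03 with the leukocyte score. Tumors of 1 mouse are not fully independent points.

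**Figure D4:**
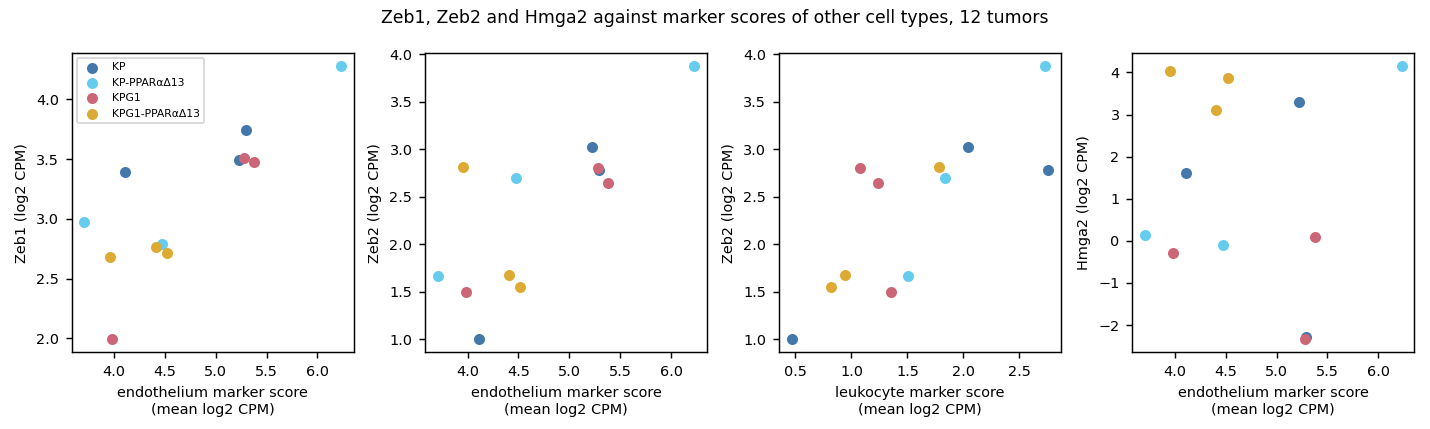
Log2 CPM of *Zeb1*, *Zeb2* and *Hmga2* (vertical axes) against the mean log2 CPM of endothelial or leukocyte markers (horizontal axes), where each point is 1 of 12 tumors colored by group. *Zeb1* and *Zeb2* increase with the endothelium score (r = 0.82 and 0.78) and *Hmga2* does not (r = -0.01).

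KP-PPARαΔ13 tumor 3, the highest in *Vim* and in 4 of the 5 transcription factor genes, was also the highest in endothelial markers, with *Pecam1* at 157.6 CPM and *Cdh5* (VE-cadherin) at 148 CPM. The 10 endothelial markers summed to 173.3 to 1004 CPM in KP-PPARαΔ13, 273.8 to 560.6 CPM in KP, 216.5 to 575.7 CPM in KPG1 and 209 to 316.8 CPM in KPG1-PPARαΔ13. None of these 10 was at 0 in any tumor. In KPG1-PPARαΔ13 against KP-PPARαΔ13, where *Zeb1* was lower, 10 of 10 endothelial markers were lower too, with a median log2 fold change of -0.88, none called and none without overlap. Fibroblast markers summed to 131.8 to 287.5 CPM in KP, 323.5 to 574.6 CPM in KP-PPARαΔ13, 100.3 to 389.2 CPM in KPG1 and 155.3 to 206.5 CPM in KPG1-PPARαΔ13, so in KP-PPARαΔ13 their sum was above all tumors of KP and of KPG1-PPARαΔ13. *Col1a1* had 77.8 to 143.8 CPM in KP-PPARαΔ13, 29.6 to 69.2 CPM in KP and 33.5 to 46.9 CPM in KPG1-PPARαΔ13, and *Col1a2* had 87.6 to 173.8, 33.2 to 75.3 and 40.6 to 56.7 CPM. In KP-PPARαΔ13 against KP, 8 of the 11 fibroblast markers tested were higher and 3 lower. Without overlap, 3 were higher and 1 was lower, against 13.3% of all genes tested. *Mfap4* was at 0.201 to 0.377 CPM in KP-PPARαΔ13 against 0.487 to 0.97 CPM in KP. Over the 12 tumors *Lum* and *Dpt* stayed at 0.68 and 1.02 CPM or less, *Pdgfra* was at 1.93 to 7.47 CPM and *Pdgfrb* at 13.2 to 55.9 CPM. The part of these cells in the levels of *Vim*, *Zeb1* and *Zeb2* was not tested.

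The remaining marker lists held no gene that passed the threshold in any of the 5 comparisons. Leukocyte markers (9 of 10 tested) summed to 19.3 to 93.4 CPM over the 12 tumors. They were lower in 9 of 9 in both comparisons of KPG1 genotype, with medians of -0.73 and -0.73. In KP-PPARαΔ13 against KP, 5 were higher and 4 lower, with a median of 0.02. Only *Cd53* was without overlap there (13.3% of all genes tested were), at 6.68 to 23.7 CPM against 0.485 to 5.55 CPM in KP. The 8 pericyte and smooth muscle markers had medians between -0.35 and -0.09 and no gene without overlap. Of the 6 mesothelial markers *Wt1* was at 0.226 CPM or less, while *Msln*, which tumor cells also express, was 158.1 to 294.3 CPM in KP-PPARαΔ13, 2.37 to 42.8 CPM in KP and 3.96 to 61.5 CPM in KPG1-PPARαΔ13. Airway markers summed to 33.0 to 383.2 CPM. The 8 proliferation genes had medians from -0.17 to 0.36. The only member of that list without overlap was *Mcm5* (30.2 to 36.1 CPM in KPG1 against 39.9 to 62.3 CPM in KP). Of all genes tested, 9.95% had no overlap in that comparison.

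The mesenchymal effector genes, 15 matrix, protease and surface genes of which 14 were tested, gave mostly positive values in KP tumors. In KP-PPARαΔ13 against KP, 13 of 14 had positive log2 fold changes, with a median of 0.66 against -0.01, but none passed the threshold. Of these, 6 had no overlap and 4 an unadjusted p under 0.05 from edgeR, against 13.3% and 11.4% of all genes tested. *Tnc*, the matrix protein tenascin C, was 62.6 to 86.6 CPM against 6.12 to 33.5 CPM, a log2 fold change of 2.22 with a standard error of 0.644 (adjusted p = 0.308 from edgeR). *Loxl2*, a collagen cross-linking enzyme, was 2.31 to 9.75 CPM against 0.788 to 2.26 CPM, a log2 fold change of 2.09 with a standard error of 0.574 (adjusted p = 0.305 from edgeR). In KPG1-PPARαΔ13 against KPG1, 8 of 14 were positive with a median of 0.23 and none without overlap. In KPG1-PPARαΔ13 against KP-PPARαΔ13, 13 of 14 were negative with a median of -0.52, and 5 had no overlap, against 17.6% of all genes tested. *Tnc* (14.8 to 57.7 CPM) and *Loxl2* (1.26 to 1.94 CPM) again led. In KPG1 against KP, 7 were positive and 7 negative. For the difference between the doxycycline effects 12 of 14 were negative, with a median of -0.88 and none called. The fibroblast markers had medians of 0.45 in KP-PPARαΔ13 against KP, -0.13 in KPG1-PPARαΔ13 against KPG1, -0.02 in KPG1 against KP and -0.82 in KPG1-PPARαΔ13 against KP-PPARαΔ13. Their part in the values of the effector genes was not tested.

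The epithelial lists were mixed. Of 22 junction and keratin genes, 15 were positive and 7 negative in KP-PPARαΔ13 against KP (median 0.20), with 4 higher and 2 lower without overlap. *Cldn4*, a tight junction claudin, was 166.5 to 332.3 CPM against 30.5 to 112.2 CPM (log2 fold change 1.87), and *Krt19*, a simple epithelial keratin, 494.3 to 695.1 against 162.3 to 415.9 CPM (1.11). *Marveld2* (tricellulin) and *Dsp* (desmoplakin) were lower without overlap by -0.40 and -0.23. In KPG1-PPARαΔ13 against KPG1 no junction gene was without overlap (14 positive, 8 negative, median 0.05). In KPG1 against KP 16 were positive (median 0.11), with *Ctnnd1* (p120 catenin) higher and *Marveld2* lower without overlap. In KPG1-PPARαΔ13 against KP-PPARαΔ13, *Dsp* was 394 to 792.1 against 264.8 to 344.9 CPM (log2 fold change 0.92), *Marveld2* was also higher, and *Crb3*, a polarity gene, was lower (-0.55). Of all genes tested, 13.3%, 20.6%, 9.95% and 17.6% had no overlap in these 4 comparisons, in the order given.

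Among 11 regulators of the epithelial state, *Elf5*, an epithelial ETS factor, was 48.6 to 81.2 CPM in KP-PPARαΔ13, 141.4 to 186.2 CPM in KP and 111.4 to 257.2 CPM in KPG1-PPARαΔ13. It had the smallest adjusted p of the list in both of these comparisons, with a log2 fold change of -1.28 in KP-PPARαΔ13 against KP (standard error 0.315, adjusted p = 0.291 from edgeR) and 1.39 in KPG1-PPARαΔ13 against KP-PPARαΔ13 (standard error 0.316, adjusted p = 0.462 from edgeR). *Grhl2*, which maintains E-cadherin expression, was 83.0 to 106.2 CPM in KP-PPARαΔ13 and 111.1 to 142.4 CPM in KP. *Elf3* was 60.7 to 89.5 CPM in KPG1-PPARαΔ13, below KPG1 (101.2 to 186.8) and KP-PPARαΔ13 (109.1 to 173). *Ovol2*, a repressor of *Zeb1*, was 0.585 to 1.16 CPM in KPG1 and 1.77 to 4.42 CPM in KP, and *Grhl1* was also lower in KPG1. The medians of the list were 0.26, -0.07, 0.18 and -0.04 in the 4 comparisons, in the order of the panels of fold changes, and none of the 11 was called.

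Of 11 other EMT transcription factors, 9 were tested and none was called. *Twist2* had at most 0.04 CPM and *Foxc2* at most 0.383 CPM. *Sox4*, which is active in epithelial progenitors, was 235.2 to 366.5 CPM in KPG1-PPARαΔ13 and 144.8 to 181.9 CPM in KPG1. It was 127.8 to 225.6 CPM in KP-PPARαΔ13 and 187.7 to 365.8 CPM in KP. Its groups did not overlap in KPG1-PPARαΔ13 against KPG1, KPG1 against KP, and KPG1-PPARαΔ13 against KP-PPARαΔ13. Of all genes tested, 20.6%, 9.95% and 17.6% had no overlap in these comparisons, in the order given. *Yap1*, a coactivator of the Hippo pathway, was 142.6 to 145.6 CPM in KPG1-PPARαΔ13 and 92.5 to 139.6 CPM in KPG1. The list's medians were -0.01, 0.39, -0.28 and 0.02 in the 4 comparisons.

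In the list of *Hmga2* partners and the let-7 axis, *Hmga1* and *Hmga2* had different orders of groups. Of 12 genes in it 8 were tested and none was called. *Hmga1*, its paralog, was 45.4 to 53.7 CPM in KP-PPARαΔ13 against 16.5 to 21.5 CPM in KP and 10.8 to 30.1 CPM in KPG1-PPARαΔ13, and so was not high in the group where *Hmga2* was high in every tumor. Reads shared with other loci make the *Hmga1* level uncertain. *Igf2bp2*, an RNA-binding protein gene known as a target of *Hmga2*, was 12.2 to 25.7 CPM in KP-PPARαΔ13 and 2.88 to 6.64 CPM in KP, a log2 fold change of 1.80, and was 4.37, 17.9 and 12.2 CPM in KPG1-PPARαΔ13 against 1.92, 5.82 and 8.69 CPM in KPG1. *Lin28b*, an inhibitor of let-7 maturation, had no read in any tumor, and *Lin28a* was at 0.0661 CPM or less. *Dicer1*, which cuts microRNA precursors, was 99.0 to 119 CPM in KPG1 and 142.1 to 200.8 CPM in KP. *E2f1* was 7.29 to 11.6 CPM in KPG1-PPARαΔ13 and 2.79 to 6.05 CPM in KPG1, and *Arid3a* 9.05 to 14.7 CPM in KP-PPARαΔ13 against 20.2 to 25.7 CPM in KP. *Igf2*, a fetal growth factor, was 0.194 to 0.703 CPM in KP-PPARαΔ13, 1.00 to 4.96 CPM in KP and 1.32 to 16.2 CPM in KPG1-PPARαΔ13.

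Among 17 genes tied to progression of KP tumors, 15 were tested and none was called. In KP-PPARαΔ13 against KP 12 were positive (median 0.63 against -0.01). Without overlap, 5 were higher and 1 was lower, against 13.3% of all genes tested. *Onecut2*, a homeobox transcription factor, was 44.1 to 50.7 CPM against 0.274 to 5.29 CPM, a log2 fold change of 4.41 with a standard error of 1.37 (adjusted p = 0.327 from edgeR). *Slc4a11*, a membrane transporter gene, was 22.2 to 53.6 CPM against 2.46 to 13.7 CPM. *Nkx2-1*, the lung lineage factor, was 208.5 to 272.1 CPM in KP-PPARαΔ13 and 284.2 to 486.6 CPM in KP. In KPG1-PPARαΔ13 against KPG1, where *Hmga2* was without overlap, *Foxa1*, an endoderm factor, was the only 1 of the list's 15 tested genes without overlap. Of all genes tested, 20.6% had no overlap there. *Foxa1* was at 74.1 to 152.7 against 57.2 to 68.0 CPM, and *Nkx2-1* was 242.8 to 532.8 against 245.1 to 263.4 CPM. *Onecut2* overlapped, at 2.97, 55.55 and 131.9 CPM in KPG1-PPARαΔ13 against 0.32, 6.88 and 2.18 CPM in KPG1. *Runx2* and *Arntl2* were lower in KPG1-PPARαΔ13 than in KP-PPARαΔ13 (log2 fold changes -1.19 and -1.06), with ranges of 5.97 to 9.42 against 13.8 to 19.9 CPM and of 6.56 to 12.1 against 16.7 to 23.5 CPM.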

How the data were processed

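RNA of the CD45-negative fraction of 12 tumors was sequenced single-end (TruSeq stranded mRNA). The submitters' processing notes name Cutadapt 1.4.2 for trimming, HISAT2 for alignment to mm10 and featureCounts 1.4.4 for counting, and the authors deposited the resulting count for each gene. The study's methods give a different version of Cutadapt. The strand setting and the annotation release are not given in the sources used here. The deposited log2 values matched the log2 CPM of these counts after a scale per tumor that was read from those values. They served only as a check, and whether that scale is the TMM scale was not tested. No column lacked a matching sample.

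All 12 tumors entered a single edgeR 4.0.16 fit in R 4.3.3 (TMM, filterByExpr by group, glmQLFit, glmQLFTest), which left 8 residual degrees of freedom. P-values were adjusted by Benjamini-Hochberg over 16527 genes, at a threshold of 0.05. Standard errors were obtained from the F statistic. CPM are TMM-scaled, and log2 CPM had a prior count of 2. Depth was 25263794 to 32654223 counts per tumor. Scripts were tested on simulated data. Gene positions and exon lengths are from GENCODE M21. Correlations had two-sided permutation tests with 100000 resamples, or all 1296 orders within groups.

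All 10 members are named with every value. From each other list at most 2 genes per direction are named by rule, those with a mean of at least 1 CPM, no overlap between groups and the largest change. Further genes were picked with their values in view. The members and the lists (other EMT transcription factors, epithelial-state regulators, epithelial junction genes, mesenchymal effector genes, the *Hmga2* and let-7 axis, KP tumor progression genes, proliferation genes and markers of 8 cell types) were chosen with earlier results of these data known. *Adgre1* was matched by an older symbol. Some items are not reported here. Replicates are tumors, in 3 cases of the same mouse, so p-values partly measure spread within mice. The alternatives were DESeq2 1.42.0, limma 3.58.1 voom, RLE size factors, no filter, a sex covariate, a block for replicate number, sums per mouse, and each tumor left out.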

Additional observations from a re-analysis of the deposited data

Results flagged for a closer look

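The effect of the KPG1 genotype on *Sox4* and *Marveld2* pointed opposite ways under the diets, with no overlap of the groups in either diet. Both genes were picked for this pattern. Of all genes tested, 9.95% had no overlap in KPG1 against KP and 17.6% in KPG1-PPARαΔ13 against KP-PPARαΔ13. *Sox4* had a log2 fold change of -0.71 in KPG1 against KP and 0.68 in KPG1-PPARαΔ13 against KP-PPARαΔ13. The difference of the effects was 1.39, with an adjusted p of 0.335 from edgeR, so it did not pass the test. *Marveld2* had log2 fold changes of -0.40 and 0.62, and the difference was 1.02, with an adjusted p of 0.354 from edgeR.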

How the results depend on the processing

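No member was called by edgeR or by any alternative, apart from *Hmga2* in KPG1-PPARαΔ13 against KPG1 by DESeq2, so the count of members called was 1 there in place of 0 (log2 fold change 4.37, adjusted p = 0.0265). Its log2 fold change stayed between 3.86 and 5.76 in the 13 alternatives, with adjusted p from 0.0265 to 0.9992. The log2 fold change of *Hmga2* between KP-PPARαΔ13 and KP turned to -1.12 with sex as a covariate and to -2.17 without KP-PPARαΔ13 replicate 3, the lowest of a leave-one-out range that reached 2.06. The cause was not tested.

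Over all genes, the count called depended on the tool. DESeq2 called 372, 211, 60, 155 and 286 genes in KP-PPARαΔ13 against KP, KPG1-PPARαΔ13 against KPG1, KPG1 against KP, KPG1-PPARαΔ13 against KP-PPARαΔ13 and the difference between doxycycline effects, where edgeR called 1, 1, 6, 5 and 0. In the first comparison the count was 2 with no filter and 0 with sex as a covariate, the replicate block or tumors of one mouse summed. In the second it was 0 with limma voom or summed tumors and 2 with the replicate block. In the third it was 2 with sex as a covariate or summed tumors. In the fourth it was 2 with sex as a covariate or summed tumors and 3 with the replicate block. Leaving out each tumor gave 0 to 1, 0 to 2, 2 to 3, 2 to 4 and 0 genes in these 5. Of the 40 relations with marker scores, 3 passed, and 0 did with 1 point per mouse or as deviations from group means. The replicate numbers did not pair the samples, as same-numbered tumors had correlations of -0.19 to 0.127 and only 2 of 18 pairs were over 0.1, and the replicate block changed no call of a member.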
